A study of Mus musculus with 30 samples.

Results

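The genes described here are 9 genes of fibroblast growth factor (FGF) signalling and of the feedback on ERK, the kinase at the end of that pathway. They were chosen by name and matched to the gene identifiers of the count tables, and all 9 were found among the 55401 genes listed. They are the ligand Fgf4, the receptors Fgfr1 and Fgfr2, the feedback inhibitors Spry2, Spry4, Spred1 and Dusp6, and the ETS transcription factors Etv4 and Etv5. Nuclear RNA of mouse embryonic stem cells (mESCs) was sequenced in 30 libraries, in 15 conditions with 2 replicates each, to ask how genes respond when the SRCAP protein is removed. SRCAP is the catalytic subunit of a complex that exchanges histone H2A for its variant H2A.Z. The libraries fall into 4 count tables, and values were compared only within a table.

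The first table holds unmodified CGR8 mESCs, untreated or given 500 µM of the auxin indole-3-acetic acid (IAA) for 4 h, which show what IAA does without a degradable protein. The second holds SYAT cells, which are CGR8 cells with YPet-AID, a fluorescent protein joined to an auxin-inducible degron, on both alleles of Srcap, and with the auxin receptor OsTir1. They were harvested 2, 4, 6 and 8 h after IAA was added and compared with control cells kept in Auxinole, an inhibitor of OsTir1. The third holds SYAT cells sorted in early G1 (EG1) or late G1 (LG1), control or after 1 h of IAA. The fourth holds SYAT cells that also expressed SRCAP-mCherry from a doxycycline-inducible promoter, either wild-type (wtSRCAP) or with a mutated ATPase domain (cdSRCAP, catalytically dead). Those cells received 1 µg/mL doxycycline for 24 h, then IAA or control for 4 h, and were sorted for like mCherry fluorescence. SYAT cells came from 1 clone of tagged cells, into which OsTir1 was then brought by lentivirus, with selection and a sort for cells that lost the tagged protein. The wtSRCAP and cdSRCAP lines are 1 clone each, so a difference between wtSRCAP and cdSRCAP cannot be told apart from a difference between clones. All cells were routinely grown with PD184352, an inhibitor of the ERK kinase MEK, and were moved to serum and LIF without inhibitors before the experiments.

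Fgf4 lies on chromosome 7 at 144847367-144865243 and Fgfr1 on chromosome 8 at 25513654-25575718, both on the plus strand. Spry2 lies on chromosome 14 at 105891947-105896819 on the minus strand, Spred1 on chromosome 2 at 117121374-117182279 on the plus strand, and Dusp6 on chromosome 10 at 99263231-99267489 on the plus strand. Etv4 lies on chromosome 11 at 101769742-101785371 and Etv5 on chromosome 16 at 22381309-22439719, both on the minus strand, and Spry4 on chromosome 18. Coordinates are those of the GENCODE vM21 annotation of GRCm38. The gene model of Fgfr2, on the minus strand of chromosome 7 from 130162451 to 133123350, overlaps 69 other genes, 30 of them protein coding, so reads between its exons may come from those genes. Fgfr1 overlaps 1 antisense gene, Gm16159, and whether reads were counted by strand was not given in the sources used here.

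In this pathway, a secreted FGF binds a receptor tyrosine kinase, which activates RAS, RAF, MEK and ERK. Active ERK raises the transcription of genes that restrain the pathway, so that the RNA of Sprouty, Spred and Dusp genes serves as a readout of its activity. In mESCs, FGF4 made by the cells themselves drives most ERK activity and primes the cells for differentiation. Sprouty and Spred proteins act between the receptor and RAF, DUSP6 is a phosphatase that inactivates ERK in the cytoplasm, and ETV4 and ETV5 are ETS factors that carry FGF signals to target genes.

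RefSeq promoter windows, from 250 bases before to 50 bases after a start, were at hand for 6 of the 9 genes, with 7 windows in all on GRCm38.p6. The core bound by ETS factors, CGGAAG, was searched on both strands, since Etv4 and Etv5 are themselves ETS factors. It was found in the windows of Spred1 and Dusp6, 2 of the 7, while 16.85% of all 32851 windows hold it. The AP-1 letters TGANTCA, searched likewise, were in 0 of the 7 windows and in 7.81% of all windows. These 2 stretches, from 100 bases before to 20 bases after the start on the plus strand, are shown as the only windows of these genes with a match, and capitals mark the matches. The Dusp6 stretch is chr10:99263131-99263250 and the Spred1 stretch is chr2:117120971-117121090. A match is a run of letters and not a site of binding.
Dusp6: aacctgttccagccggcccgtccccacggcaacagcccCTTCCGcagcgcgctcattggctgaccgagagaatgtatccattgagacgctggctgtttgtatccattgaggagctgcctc
Spred1: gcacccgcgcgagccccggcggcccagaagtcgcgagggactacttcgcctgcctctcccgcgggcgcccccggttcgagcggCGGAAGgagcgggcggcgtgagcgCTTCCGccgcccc

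Exon counts summed to between 45617992 and 60214521 in the CGR8 libraries, 17540823 and 22873893 in the time course, 19740778 and 26672402 in the sorted cells and 12236493 and 26369773 in wtSRCAP and cdSRCAP cells. Defining genes of mESCs were found in all 30 libraries, at levels that differed widely between genes. Dppa5a was at 347 to 1750 CPM (counts scaled to library size) per kb of exon and Pou5f1 at 141 to 463. Klf4 was at 6.24 to 59.2 and Tfcp2l1 at 5.34 to 47.9. Of 18 markers of other cell types, Nes of the neuroectoderm was high, at 5.25 to 58.8 CPM per kb, and Thy1 and Col1a1 of fibroblasts reached 6.78 and 4.82, Eomes of the mesendoderm 4.46, Gata4 of the primitive endoderm 2.56 and Pax6 of the neuroectoderm 2.5. The other 12 were at no more than 1.28 in any library, with Lum at 0 to 0.0506. The summed level of 4 mesendoderm markers was 2.5 to 3.5 CPM per kb in control SYAT cells and 3.8 to 6.5 over the 4 times of IAA, and that of 6 fibroblast markers was 6.00 to 6.35 in control and 7.14 to 9.25 from 4 to 8 h. The part of these sums in the results was not tested. The summed level of 10 mESC genes was 2909 CPM per kb in the IAA 6 h replicate 2 library of the time course and 1521 to 1911 in the other libraries of that table. IAA removes the SRCAP protein, so Srcap RNA is no check of it. Srcap exons were at 2.53 and 2.90 CPM per kb in control SYAT cells and at 2.84 to 3.82 after IAA.

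Etv5 was the most abundant of the 9 genes per kb of exon in all 6 control groups, and Fgfr2 the least. In control SYAT cells Etv5 was at 113 and 110 CPM per kb, Spry2 at 90.1 and 87.0, and Fgf4 at 50.3 and 68.5. Next came Dusp6 at 61.6 and 52.8, Spry4 at 50.8 and 49.9, Etv4 at 26.3 and 21.9, Fgfr1 at 15.6 and 12.9, Spred1 at 12.7 and 13.2, and Fgfr2 at 2.15 and 2.45. In that order, Fgf4 and Dusp6 overlapped between their libraries, as did Fgfr1 and Spred1, and every other pair of neighbours was separate. In control CGR8 cells the order by mean was Etv5, Spry2, Fgf4, Spry4, Dusp6, Etv4, Fgfr1, Spred1 and Fgfr2, with Dusp6 at 29.7 and 27.5 CPM per kb. The receptors were thus among the 4 least abundant genes in both control groups, and the ligand among the 3 most abundant. In the sorted control cells most neighbours in the order overlapped between libraries, and their replicates lay far apart.

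**Figure D1:**
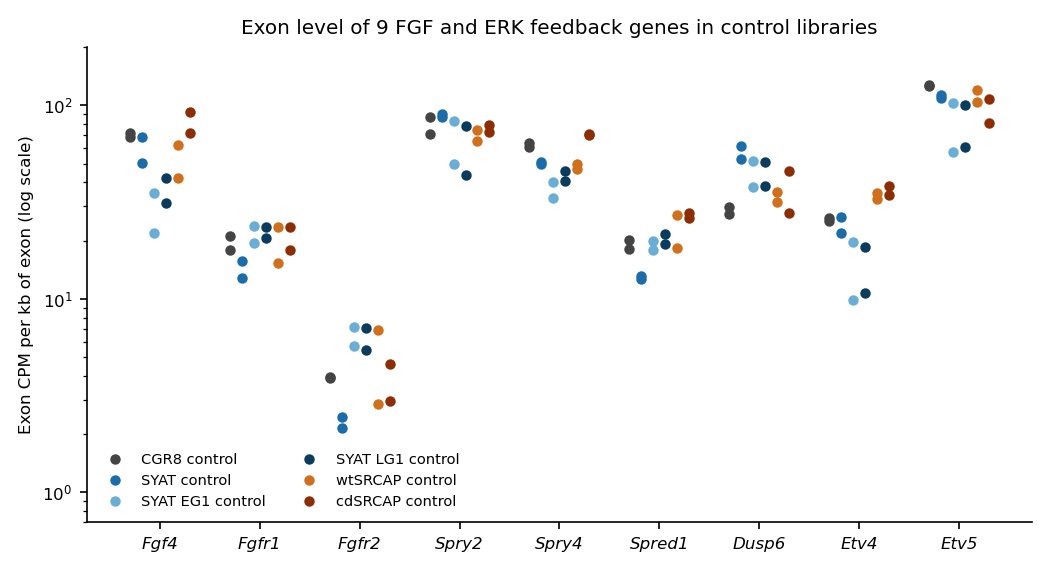
Exon level of each of the 9 genes, in CPM per kb of exon on a log axis, with a point per library in the 6 control groups. Etv5 lies highest and Fgfr2 lowest in each group, and levels set side by side across the 4 tables are descriptions only.

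In SYAT cells, none of the 9 genes passed the thresholds of an absolute log2 fold change over 0.5 and an adjusted p under 0.05 at any of the 4 times, by edgeR's quasi-likelihood test on exon counts. Of all 19205 genes tested, 0% passed at 2 h, 0% at 4 h, 0.0677% at 6 h and 0.00521% at 8 h. DESeq2 also called 0 of the 9 at each time. At an unadjusted p under 0.05, there was 1 of 9 at 2 h, 1 at 4 h, 3 at 6 h and 1 at 8 h, all higher, beside 3.92%, 9.09%, 16.1% and 13.6% of all genes in either direction and 1.37%, 3.09%, 7.93% and 5.13% in the higher direction. The 4 times share the same pair of control libraries. The log2 fold change was above 0 for 9 of 9 genes at 2 h, 8 at 4 h, 6 at 6 h and 6 at 8 h, with medians of 0.13, 0.08, 0.17 and 0.10 beside 0.00, 0.02, 0.01 and 0.03 over all genes tested, of which 50.6%, 52.4%, 50.9% and 53.2% were above 0. Both IAA libraries lay above both controls for 5, 3, 4 and 3 of the 9 genes in order of time, beside 18.6%, 21.7%, 21.5% and 20.9% of all genes. In such bulk RNA, fewer cells that express a gene and less RNA per cell cannot be told apart.

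The feedback inhibitor Spry4 had its larger differences early, although none passed. Its exon level was 50.8 and 49.9 CPM per kb in control cells, 65.1 and 70.2 at 2 h, 67.7 and 62.7 at 4 h, 61.5 and 54.6 at 6 h, and 57.1 and 51.5 at 8 h. Every IAA library lay above both controls, and the gap was widest at 2 h. The log2 fold change was 0.43 (SE 0.12, adjusted p = 0.897 in edgeR) at 2 h and 0.37 (SE 0.12, adjusted p = 0.354) at 4 h. At 6 and 8 h it was 0.21 and 0.11.

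Etv4 showed the opposite course, with its larger differences late. Its exon level was 26.3 and 21.9 CPM per kb in control cells, 26.6 and 26.2 at 2 h, 30.5 and 27.8 at 4 h, 31.8 and 33.9 at 6 h, and 34.3 and 32.2 at 8 h. The log2 fold change was 0.45 (SE 0.13, adjusted p = 0.157 in edgeR) at 6 h and 0.47 (SE 0.13, adjusted p = 0.161) at 8 h. The libraries of 4, 6 and 8 h lay above both controls, and those of 2 h overlapped them. Without control replicate 1 the 8 h value was 0.60, and without control replicate 2 it was 0.33. Over all 4 times together, an F test in edgeR gave adjusted p of 0.510 for Etv4 and 0.547 for Spry4. These were the 2 of 9 genes below the unadjusted threshold of 0.05, where 7.63% of all genes lay, and 0% of all genes passed the adjusted one.

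Spred1, which inhibits RAF activation, was at 12.7 and 13.2 CPM per kb in control cells and at 14.1 to 16.7 over the 8 IAA libraries, with 16.0 and 16.7 at 6 h. Each of these IAA libraries lay above both controls. The log2 fold change was 0.25, 0.22, 0.34 and 0.22 in order of time, with an SE of 0.13 at each, and at 6 h the adjusted p was 0.227 in edgeR. Spry2, Dusp6 and Etv5 differed less, with log2 fold changes between -0.11 and 0.10 over the 4 times. The ligand Fgf4 had values between 0.07 and 0.17, and its replicate 2 was above replicate 1 in all 5 groups.

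The receptor Fgfr1 was at 15.6 and 12.9 CPM per kb in control cells and at 16.3 and 26.9 at 6 h, where the log2 fold change was 0.60 (SE 0.21, adjusted p = 0.208 in edgeR). One library, IAA 6 h replicate 2, carried this value, which was 0.19 without it. Without replicate 1 of 6 h the log2 fold change was 0.92. IAA 6 h replicate 2 also held the highest summed level of mESC genes, given above, and the part of that in the result was not tested. At 2, 4 and 8 h Fgfr1 differed by 0.17, 0.19 and 0.15 on the log2 scale. Fgfr2, at 1.61 to 2.98 CPM per kb throughout the time course, had log2 fold changes of 0.36, -0.04, -0.10 and -0.24.

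**Figure D2:**
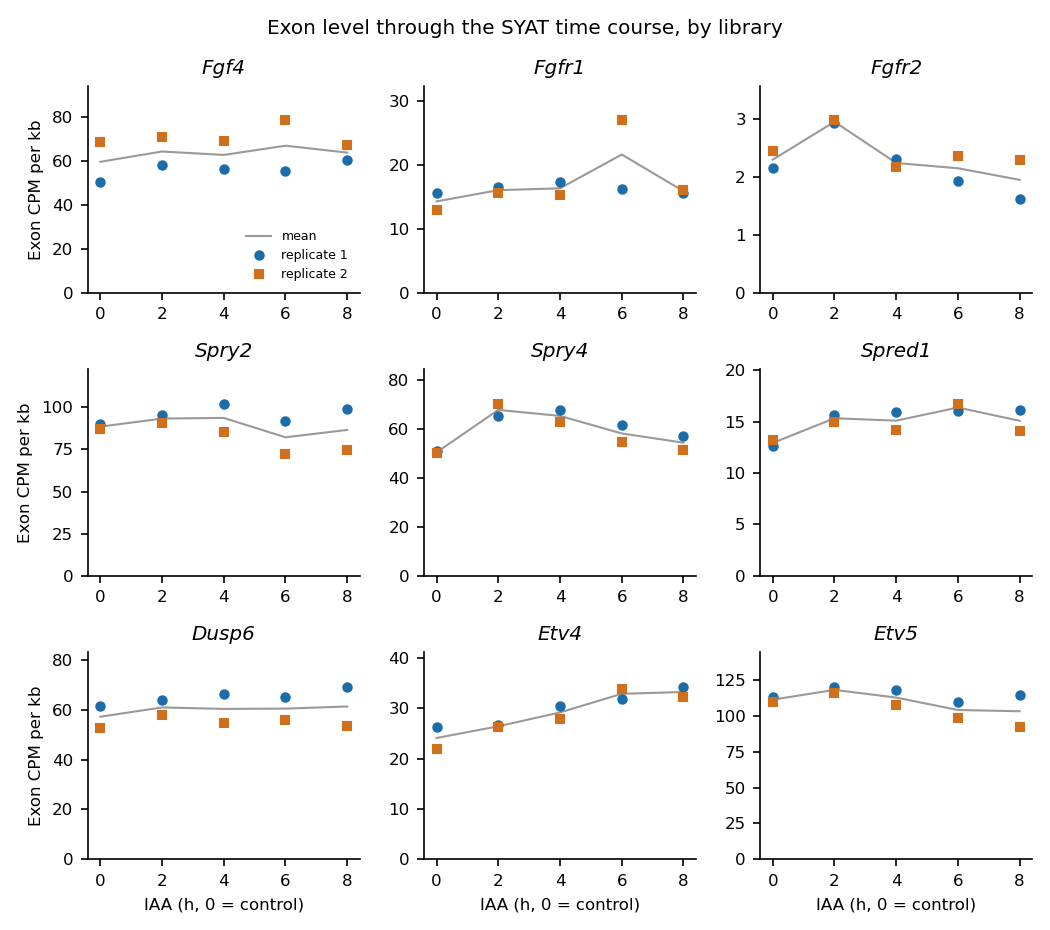
Exon level in CPM per kb of exon of the 9 genes against hours of IAA in SYAT cells, with a point per library, 2 replicates a time, and a line through the means. Spry4 lies highest at 2 and 4 h, Etv4 at 6 and 8 h, and the high Fgfr1 point of 26.9 at 6 h is a single library.

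In CGR8 cells without a degron, 4 h of IAA was compared with untreated cells to ask what IAA itself does. None of the 9 genes passed the same thresholds in edgeR, nor in DESeq2, beside 0.00988% of all 20250 genes tested, while 3 of 9 lay below an unadjusted p of 0.05 beside 9.16% of all genes. The groups did not overlap for 4 genes that were higher and 2 that were lower after IAA, beside 21.6% and 20.6% of all genes. Spry4 was at 61.0 and 63.5 CPM per kb in untreated cells and at 80.6 and 80.0 after IAA. Its log2 fold change was 0.37 (SE 0.12, adjusted p = 0.540 in edgeR), beside 0.37 (SE 0.12) at 4 h in SYAT cells. An exon value of the same size was thus measured for Spry4 without a degron. The controls differed, untreated for CGR8 cells and kept in Auxinole for SYAT cells, and values across tables are descriptions only.

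Both receptors had lower levels in both IAA libraries of CGR8 cells. Fgfr1 was at 21.0 and 17.8 CPM per kb in untreated cells and at 14.2 and 13.5 after IAA, a log2 fold change of -0.48 (SE 0.14, adjusted p = 0.540 in edgeR). Without untreated replicate 2 this was -0.59, and without untreated replicate 1 it was -0.35. Fgfr2 was at 3.89 and 3.94 in untreated cells and at 2.99 and 2.90 after IAA, with a log2 fold change of -0.41 (SE 0.14, adjusted p = 0.540). The values at 4 h in SYAT cells were 0.19 for Fgfr1 and -0.04 for Fgfr2, and the difference between cell lines was not tested. The other 6 genes had log2 fold changes of 0.01 to 0.17 in CGR8 cells, with Etv4 at 0.17 and Spred1 at 0.17.

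**Figure D3:**
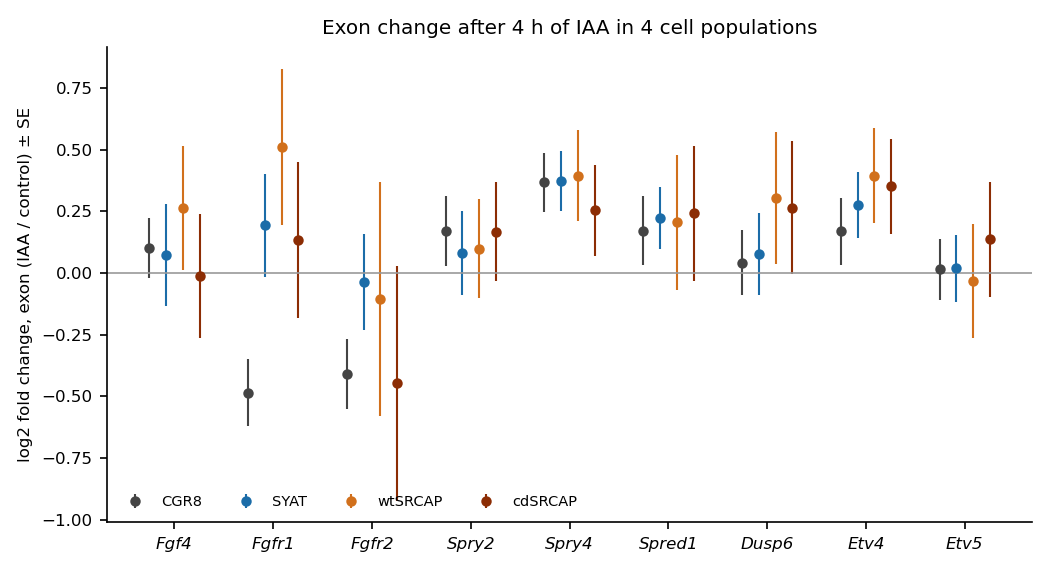
Log2 fold change of exon counts after 4 h of IAA against control for the 9 genes in CGR8, SYAT, wtSRCAP and cdSRCAP cells, with bars of 1 SE from the fit to each table. Spry4 lies above 0 in all 4, at 0.25 to 0.40, while Fgfr1 lies at -0.48 in CGR8 cells and above 0 in the other three.

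In cells that expressed wtSRCAP or cdSRCAP, 4 h of IAA was meant to leave only the mCherry-tagged protein, so that the 2 responses could be compared. By edgeR on exons, 0 of 9 genes passed in wtSRCAP cells and 0 of 9 in cdSRCAP cells, beside 0.00523% and 0% of all 19111 genes, and 0 of 9 in each lay below an unadjusted p of 0.05, beside 7.4% and 5.64%. DESeq2 called 0 of 9 in each. Spry4 was at 49.6 and 47.0 CPM per kb in control wtSRCAP cells and at 63.9 and 63.1 after IAA, a log2 fold change of 0.40 (SE 0.19). In cdSRCAP cells it was at 70.8 and 70.2 in control and at 83.0 and 85.0 after IAA, a log2 fold change of 0.25 (SE 0.19). Etv4 was at 32.8 and 35.2 in control wtSRCAP cells and at 46.7 and 42.8 after IAA, and at 34.5 and 38.3 and then 49.0 and 44.0 in cdSRCAP cells. Neither gene's libraries overlapped between control and IAA in either cell line, as for 3 of 9 genes that were higher in each, beside 14.9% of all genes in wtSRCAP and 18.7% in cdSRCAP cells. Summed mesendoderm markers were at 1.08 to 1.46 CPM per kb in control and 2.27 to 3.63 after IAA in wtSRCAP cells. In cdSRCAP cells they were at 1.28 to 1.95 and 2.73 to 2.93. Summed fibroblast markers were likewise higher, at 0.93 to 1.51 and 2.64 to 3.41 in wtSRCAP and 1.40 to 2.02 and 2.06 to 2.30 in cdSRCAP cells. Primitive endoderm markers were separate in wtSRCAP cells only, and neuroectoderm markers overlapped in both. The part of these sums was not tested.

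The test of the difference between the 2 responses called 0 of 9 genes in edgeR at an adjusted p under 0.05, beside 0% of all genes, and 0 of 9 below an unadjusted 0.05, beside 0.785%. The difference was -0.14 (SE 0.26) for Spry4, -0.04 (SE 0.27) for Etv4 and -0.38 (SE 0.45) for Fgfr1 on the log2 scale, cdSRCAP minus wtSRCAP. Fgfr1 was at 23.5 and 15.4 CPM per kb in control wtSRCAP cells and at 34.8 and 20.6 after IAA, so that the groups overlapped.

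Before IAA, Spry4 and Fgf4 had higher levels in both cdSRCAP than in both wtSRCAP libraries, although neither passed the thresholds without a replicate block. With the replicate number as a block in edgeR both passed, Spry4 at 0.55 (adjusted p = 0.0456) and Fgf4 at 0.66 (adjusted p = 0.0179). Calls over all genes with the block are given in the last section, and whether the numbers pair these samples was not settled. Spry4, at 70.8 and 70.2 against 49.6 and 47.0 CPM per kb, had a log2 fold change of 0.54 (SE 0.19, adjusted p = 1.000 in edgeR). Fgf4 was at 72.1 and 92.9 in cdSRCAP and 42.3 and 62.7 in wtSRCAP control cells, so that in both clones replicate 2 was the higher and the clones did not overlap. Its log2 fold change was 0.65 (SE 0.25, adjusted p = 1.000), or 0.38 without wtSRCAP replicate 1 and 0.96 without wtSRCAP replicate 2. Without the block 0% of all genes passed in this contrast in edgeR, and DESeq2 called neither gene. At an unadjusted p under 0.05 there were 2 of 9 genes beside 3.82% of all genes. These 2 were also the genes with both cdSRCAP libraries above both wtSRCAP libraries, as were 15.7% of all genes. The summed level of mESC genes was likewise higher in replicate 2, at 1637 and 2248 CPM per kb in wtSRCAP and 1770 and 2750 in cdSRCAP control cells, and its part was not tested. After IAA the log2 fold changes of cdSRCAP against wtSRCAP were 0.40 for Spry4 and 0.38 for Fgf4, and 0 of 9 genes passed in edgeR or DESeq2, beside 0.00523% of all genes in edgeR. None of the 9 lay below an unadjusted p of 0.05 there, beside 5.03% of all genes.

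**Figure D4:**
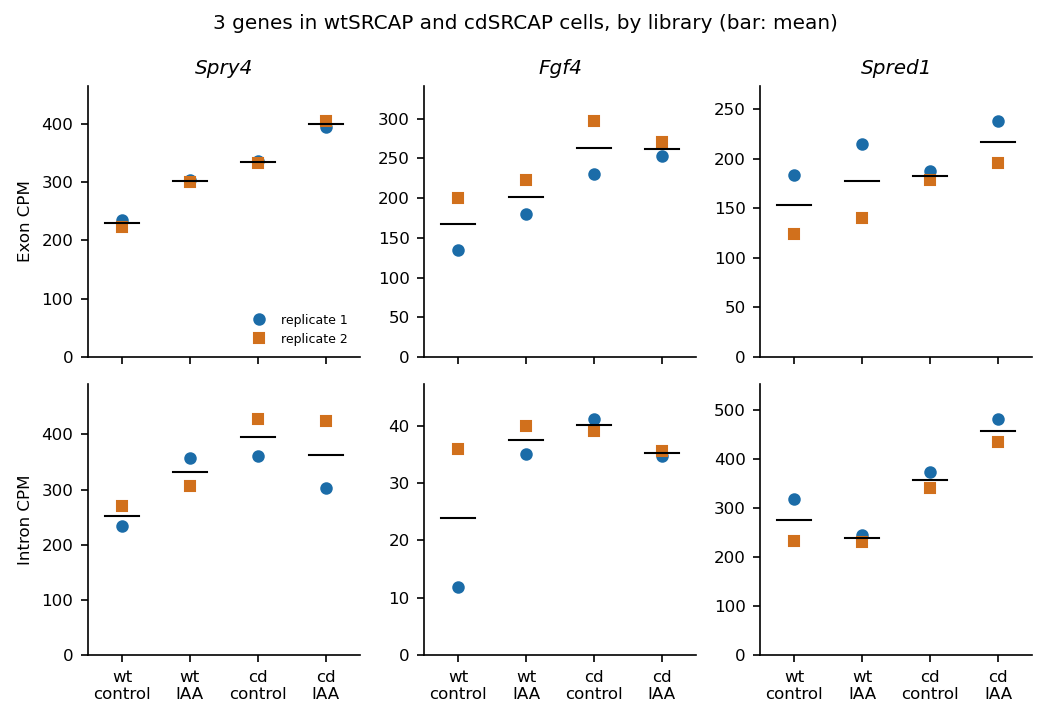
Exon CPM (top) and intron CPM (bottom) of Spry4, Fgf4 and Spred1 in wtSRCAP and cdSRCAP cells, control or after 4 h of IAA, with a point per library and a bar at the mean of 2 replicates. Exon Spry4 steps up from 230 CPM in control wtSRCAP to 335 in control cdSRCAP cells, and intron Spred1 is highest in cdSRCAP cells after IAA.

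In sorted cells, where 1 h of IAA fell in mitosis for EG1 and in G1 for LG1, the libraries of control and IAA-treated cells overlapped for all 9 genes in both phases. Over all genes, 21.4% did not overlap in EG1 and 18.3% in LG1. Etv5 was at 57.1 and 103 CPM per kb in control EG1 cells, at 61.8 and 103 after IAA, at 60.8 and 100.3 in control LG1 cells and at 69.3 and 108 after IAA. Replicate 2 was higher than replicate 1 in all 4 sorted groups for Fgf4, Spry2, Spry4, Spred1, Dusp6, Etv4 and Etv5, and lower in all 4 for Fgfr1 and Fgfr2. The gap reached 1.01 on the log2 scale for Etv4 and 0.98 for Spry2. The summed level of mESC genes was also higher in replicate 2 in each of the 4 groups, at 1475 to 1828 CPM per kb against 1166 to 1489, and its part in this gap was not tested.

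For these IAA contrasts the thresholds were an absolute log2 fold change over 0.25 and an unadjusted p under 0.05. In edgeR on exons, 0 of 9 genes passed in EG1 and 0 of 9 in LG1, beside 1.22% and 1.02% of all 21020 genes, and DESeq2 called 0 of 9 in each. Fgf4 had the largest values, 0.24 in EG1 and 0.29 in LG1, each with an SE of 0.34. Its level was 21.8 and 35.0 CPM per kb in control EG1 cells, 24.1 and 43.0 after IAA, 31.1 and 41.9 in control LG1 cells and 36.4 and 52.7 after IAA, higher with IAA within each replicate number and phase. With the replicate number as a block in edgeR, Fgf4 in LG1 was 0.28 (adjusted p = 0.421) and passed these thresholds, beside 4.20% of all genes. The difference between the LG1 and EG1 responses was 0.05 (SE 0.48) for Fgf4, and none of the 9 genes passed that test in edgeR at an adjusted or unadjusted p under 0.05, beside 0% and 0.699% of all genes.

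Between phases, 0 of 9 genes passed in exons, LG1 against EG1, in control or IAA-treated cells, by edgeR or DESeq2, and 0 of 9 lay below an unadjusted p of 0.05, beside 0% passed and 1.44% and 2.31% at the unadjusted p over all genes. Fgf4 was 0.36 (SE 0.34) higher in LG1 in control and 0.41 (SE 0.34) higher after IAA. With the replicate block in edgeR its adjusted p was 0.0152 and 0.0042 at 0.38 and 0.43, under the fold threshold of 0.5. No share of all genes with the block is given between phases, so these 2 values have no background beside them. The other 8 genes differed by -0.13 to 0.23 in control cells.

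**Figure D5:**
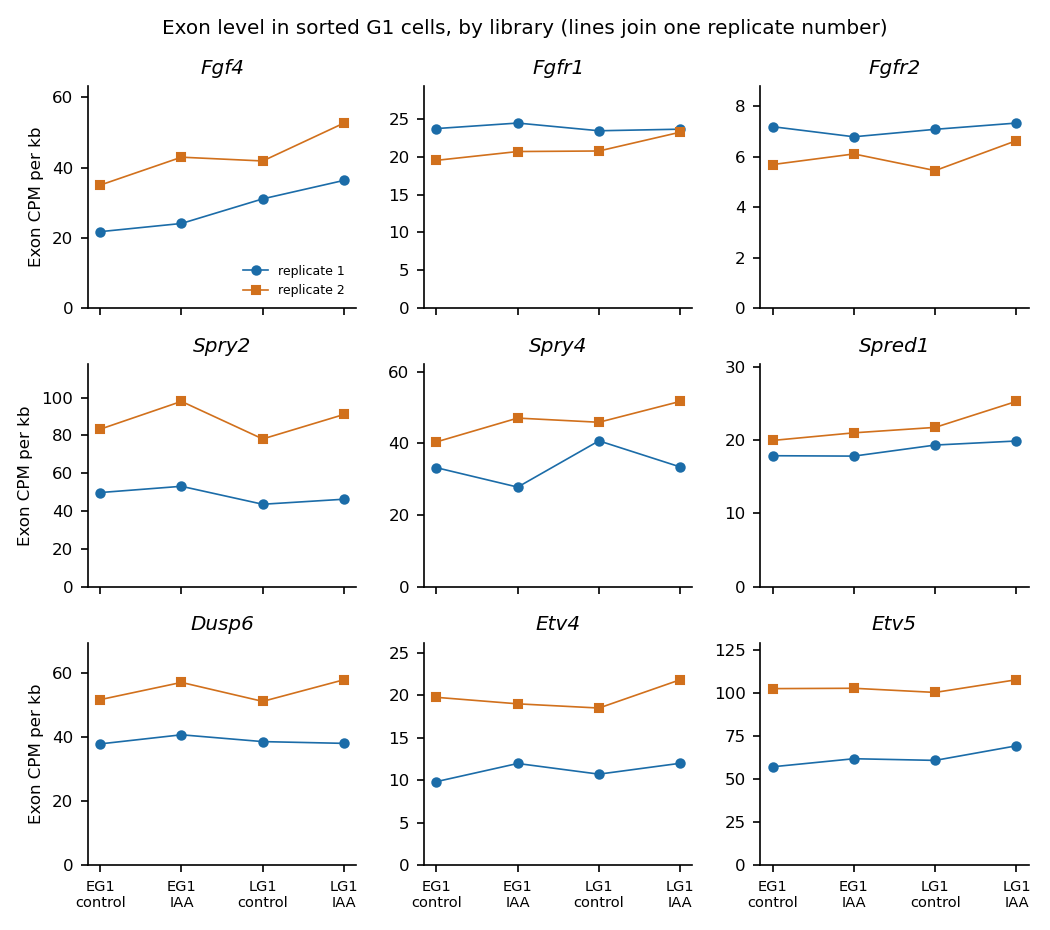
Exon level in CPM per kb of exon of the 9 genes in sorted EG1 and LG1 cells, control or after 1 h of IAA, with a point per library and lines that join libraries of one replicate number. The 2 lines stay apart for Etv4, Etv5 and Spry2, and Fgf4 is highest in LG1 after IAA in both replicates.

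Intron columns were read beside the exons, since unspliced RNA reports recent transcription. Single-exon genes, which have no intron, nevertheless held intron counts in the time course and EG1 libraries, in 35.2% to 48.3% of such genes, and in none of the LG1, CGR8, wtSRCAP and cdSRCAP libraries. The intron columns of those 14 libraries thus seem to hold exon reads for at least a part of the genes. How they were counted is not known, and EG1 and LG1 introns are not alike in content. In SYAT cells 0 of 9 genes passed at any time in edgeR or DESeq2, beside 0% of 14719 genes at 2 and 4 h, 0.0136% at 6 h and 0.00679% at 8 h. At an unadjusted p under 0.05 there were 2, 3, 3 and 3 of 9 in order of time, 1 lower at 4 h and 1 at 8 h, beside 5.13%, 9.5%, 14.5% and 13.5% of all genes. Spred1 had log2 fold changes of 0.31, 0.27, 0.33 and 0.40, Etv4 0.19, 0.32, 0.45 and 0.46, and Spry4 0.44, 0.34, 0.15 and -0.11. The intron columns thus held Spry4 highest early and Etv4 highest late, though they may share exon reads with the exon columns. The F test over all times gave 3 of 9 below an unadjusted 0.05, beside 6.86% of all genes, and 0 of 9 at the adjusted one, beside 0%. The lower values were of Fgfr2, whose intron counts were 639 and 831 in control cells, 0 and 0 at 4 h, 0 and 1095 at 6 h and 0 and 29 at 8 h, across a gene model shared with other genes.

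In CGR8 introns 0 of 9 genes passed in edgeR or DESeq2, beside 0.022% of 13634 genes, and Fgfr1 alone lay below an unadjusted p of 0.05, at -0.37, beside 5.24% of all genes. Spry4 introns differed by 0.15 (SE 0.14) there and overlapped between groups. In wtSRCAP and cdSRCAP cells, Spred1 introns were at 245 and 231 CPM after IAA in wtSRCAP and at 481 and 435 in cdSRCAP cells. The log2 fold change was 0.94 (SE 0.18, adjusted p = 0.141 in edgeR). In this contrast 0 of 9 genes passed in edgeR and 1 of 9 lay below an unadjusted 0.05, beside 0.0157% and 10.2% of 12702 genes. DESeq2 called Spred1 at 0.87 (adjusted p = 0.0012), and no share of all genes is given for that tool here. In control cells Spred1 introns were at 319 and 232 CPM in wtSRCAP and at 374 and 341 in cdSRCAP cells, a log2 fold change of 0.38 (SE 0.17), and the test of the difference between the IAA responses gave 0.57 (adjusted p = 1.000 in edgeR), where 0% of all genes passed and 2.54% lay below an unadjusted 0.05. Spry4 introns were 0.65 (SE 0.19, adjusted p = 0.433) higher in cdSRCAP than in wtSRCAP control cells, at 362 and 427 against 234 and 270 CPM, so that both intron and exon columns were separate between the clones. In that contrast 0 of 9 genes passed in edgeR and DESeq2, with 1 at an unadjusted p under 0.05, beside 0.102% and 7.07% of all genes.

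With 4 h of IAA, introns of 0 of 9 genes passed in wtSRCAP and in cdSRCAP cells in edgeR and DESeq2, beside 0.299% and 0.236% of all genes, with 1 (Etv4, 0.47) and 0 of 9 at an unadjusted p under 0.05, beside 12.4% and 11.3%. With 1 h of IAA in LG1, 9 of 9 genes had an intron log2 fold change above 0, beside 48.3% of all 17441 genes, with a median of 0.34 beside 0.00, and 0 of 9 passed in edgeR and DESeq2, beside 3.94% of all genes. With the replicate block 4 of 9 passed in LG1, Dusp6 at 1.00, Fgf4 at 0.58, Fgfr1 at 0.41 and Spred1 at 0.32, beside 9.02% of all genes. Dusp6 introns held 0.89 to 2.41 CPM in those libraries. In EG1 introns 8 of 9 genes were above 0, beside 45.3% of all genes, and 0 of 9 passed, with or without the block or in DESeq2, beside 2.28% of all genes in edgeR. The difference between the responses passed for 0 of 9 genes, beside 0% of all, with 0 of 9 below an unadjusted 0.05, beside 1.8%. Between LG1 and EG1, 5 of 9 passed in the intron columns in control cells, Dusp6, Spry2, Fgf4 and Fgfr1 lower in LG1 and Fgfr2 higher, beside 59% of all genes. After IAA the count was 5 of 9 beside 64.4%, and at an unadjusted 0.05 it was 5 and 6 of 9 beside 64.5% and 68.7%. As the columns of the 2 phases are not alike in content, these intron contrasts do not measure a difference between phases.

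Of 63 other genes of the pathway, listed as ligands, receptors, kinase cascade, feedback inhibitors and nuclear targets, 62 were found and 54 were tested in the exons of the time course. By edgeR 0 of 54 passed at each time, with 6, 9, 14 and 9 higher and 0, 1, 0 and 0 lower at an unadjusted p under 0.05. Over all genes the shares were 1.37%, 3.09%, 7.93% and 5.13% higher and 2.55%, 6%, 8.21% and 8.44% lower. The median log2 fold change over the 54 was 0.23, 0.25, 0.42 and 0.25, beside 0.00, 0.02, 0.01 and 0.03 over all genes tested. In CGR8 cells the median was 0.02, and in wtSRCAP and cdSRCAP cells 0.28 and 0.31 over 52 tested genes, with 0 passed in each without a block. With the replicate block in edgeR, 5 of 52 passed in wtSRCAP and 2 of 52 in cdSRCAP cells with IAA, all higher. In the time course 0, 1, 4 and 3 of 54 then passed in order of time, all higher. Calls over all genes with the block are given in the last section. Of 10 other feedback inhibitors, 4, 5, 7 and 4 were higher at an unadjusted p under 0.05 in edgeR in order of time, beside the shares above. They were the kind of gene with the largest share at 6 h. The lists were chosen with earlier results of these data known, so this excess is no independent test. Their median log2 fold change at 6 h was 0.45. It was 0.43 without the IAA 6 h replicate 2 library, which held the highest summed level of mESC genes in the time course. Without control replicate 2 it was 0.30. DESeq2 called 0, 2, 5 and 4 of the 54 in order of time, all higher, beside 0.0469%, 0.948%, 3.24% and 2.33% of all genes in either direction. Dusp9, Phlda1 and Dusp5, named here after their values were seen, were among the 5 at 6 h. Dusp9, a phosphatase of ERK, had a log2 fold change of 1.03 at 6 h (adjusted p = 0.0646 in edgeR) and -0.06 in CGR8 cells at 4 h. Phlda1 was at 1.35 at 6 h (adjusted p = 0.0679) and at 0.14 in CGR8 cells, and Dusp5, a nuclear ERK phosphatase, at 0.86 (adjusted p = 0.0824) and 0.07. In sorted exons 0 of 56 passed in EG1 and in LG1 in edgeR, 0 of 56 lay below an unadjusted p of 0.05 in each, and DESeq2 called 1 in EG1, Fos, and 0 in LG1, beside 0.347% and 0.262% of all genes. With the replicate block in edgeR, 7 of 56 passed in EG1 and 3 in LG1, beside 6.04% and 4.20% of all genes, so that the share in LG1 was near that of all genes. In sorted introns 1 of 52 tested genes passed in EG1, Fos at 0.84, beside 2.28% of all genes. In LG1 5 of 52 passed, all higher, beside 3.94% of all genes. Among them were Elk1 at 1.87, from a mean of 0.842 CPM in control to 3.20 after IAA, Srf at 0.57, Fgfrl1 at 0.49 and Il17rd at 0.45.

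The pattern of each gene over the 15 conditions, each relative to the mean of its own table, was set beside that of the other 17480 genes that passed the exon filter in all 4 tables. The likeness was the root mean square difference of log2 exon CPM, where a smaller value is more alike. The root mean square of a gene's own pattern ran from 0.074 for Etv5 to 0.196 for Fgfr2 among the 9. A nearly flat pattern lies close to any other flat one, and shared regulation was not tested. Spry2 was most like Sox2, a pluripotency factor, at 0.034, and Fgf4 most like Esrrb, another pluripotency factor, at 0.077. Spry4 was most like Dcbld1 at 0.065, Spred1 like Dnajb6 at 0.047, Dusp6 like Rrn3 at 0.032, Etv4 like Pdk1 at 0.044 and Etv5 like Nras, a RAS gene of the pathway itself, at 0.033. Fgfr1 was most like Stoml1 at 0.032 and Fgfr2 like Kctd11 at 0.079. Among the 9 genes the closest pair was Spry2 and Dusp6, at 0.081.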

How the data were processed

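Nuclear RNA-seq of 30 libraries was used. According to the methods of the study, the authors aligned reads with STAR to mm10 and counted them with featureCounts on GENCODE vM25 exons and on introns, the gene body without exons. They deposited whole-number counts per gene, unnormalized. Deposited tables of their comparisons, with log2 fold changes and p-values, were not used here. Groups came from the sample labels. In these data each table was fitted whole with edgeR 4.0.16 in R 4.3.3 (filterByExpr with a minimum count of 10, TMM, quasi-likelihood test, Benjamini-Hochberg adjustment), with DESeq2 1.42.0 as an alternative. CPM uses TMM-scaled totals, and lengths are those of vM21 exons. Scripts were tested on simulated data. Biological duplicates were cultured and treated separately. Replicate deviations correlated between groups at 0.372 to 0.586 in sorted exons and 0.141 to 0.638 in sorted introns, so numbers were taken to pair samples there and the blocked value is given where it changes a call. The genes and lists were chosen with earlier results of these data known, and genes were named by that list, or as called among pathway genes. Values rest on 2 replicates a condition.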

Additional observations from a re-analysis of the deposited data

How the results depend on the processing

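The number of the 9 genes called was recomputed for 32 results. With DESeq2 size factors, none of the 32 counts moved. Without a filter on low counts, 1 gene in place of 0 was called in 6 h exons of the time course (Fgfr1) and 1 in introns of cdSRCAP against wtSRCAP after IAA (Spred1). With only the 2 groups in the fit, 1 was called in 4 h SYAT introns (Fgfr2). No share of all genes is given for these settings, so these counts have no background beside them. With DESeq2, 1 was called in introns of cdSRCAP against wtSRCAP after IAA, and 31 of 32 counts did not move.

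The replicate block in edgeR called 1 gene in LG1 exons with IAA, 2 in control cdSRCAP against wtSRCAP exons (Spry4, 0.55, adjusted p = 0.0456, and Fgf4, 0.66, adjusted p = 0.0179), 4 in LG1 introns with IAA and 1 in introns of cdSRCAP against wtSRCAP after IAA (Spred1, 0.94, adjusted p = 0.0061), in place of 0, and changed none of the other 28 counts. No share of all genes with the block is given for the intron contrast of cdSRCAP against wtSRCAP after IAA. Replicate deviations correlated at -0.036 to 0.589 between groups of the time course exons and 0.001 to 0.639 in its introns. They correlated at 0.074 and 0.060 in CGR8 exons and introns. As values near 0 occurred in both tables, the numbers were not taken to pair samples of the time course or of CGR8. Whether they do was not settled. In wtSRCAP and cdSRCAP cells the deviations correlated at 0.259 to 0.376 in exons but 0.076 to 0.296 in introns of the same samples. Whether the numbers pair samples there was not settled. Exon calls of the 9 genes there, and of the pathway genes with IAA, are thus given with and without the block. DESeq2 with the replicate block was chosen after seeing the data. In exons it called 1 gene in LG1, 1 in wtSRCAP cells with IAA (Fgfr1) and 2 in control cdSRCAP against wtSRCAP. In introns it called 1 in the time course over all times (Spry4) and 5 in LG1. It also called 1 in introns of cdSRCAP against wtSRCAP in control (Spry4) and 1 after IAA. No share of all genes is given for this setting, so these counts have no background beside them. The cause of the differences between settings was not tested. Exon calls over all genes depended on the tool and the block. In edgeR, edgeR with the block and DESeq2 they numbered 2, 500 and 134 in CGR8 cells, 0, 0 and 9 at 2 h, 0, 76 and 182 at 4 h, 13, 823 and 622 at 6 h, and 1, 634 and 447 at 8 h. They numbered 257, 1269 and 73 in EG1, 214, 883 and 55 in LG1, 1, 612 and 36 in wtSRCAP and 0, 345 and 20 in cdSRCAP cells with IAA. Between cdSRCAP and wtSRCAP they numbered 0, 174 and 23 in control and 1, 269 and 8 after IAA.

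Leaving out 1 library moved the log2 fold change of Fgfr1 in CGR8 exons between -0.59 and -0.35. In 6 h exons of the time course it moved that of Fgfr1 between 0.19 and 0.92. There it moved that of Etv4 between 0.32 and 0.59. Calls are not given for these fits, which leave 1 library in a group. Exon counts were subtracted from intron counts where both seemed mixed, in time course and EG1 but not LG1 libraries. Results below 0 were set to 0. This left 1 called gene in EG1 and 1 in LG1 with IAA (Fgf4), 2 between phases in control and 3 after IAA. No share of all genes is given beside these counts. The log2 fold changes between phases then reversed to 6.17 for Dusp6, 0.062 for Spry2 and 0.40 for Fgf4 in control. After IAA they reversed to 7.10 for Dusp6 and 0.24 for Fgf4. As only the EG1 side was subtracted and cut at 0, these values do not measure a difference between phases either. With 2 replicates a condition, the SE of the log2 fold change limits what these tests could resolve, from 0.12 for Spry4 in the time course to 0.48 for Fgfr2 in wtSRCAP cells.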
